A study of Rattus norvegicus with 12 samples.

Results

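Cd68, Fcrl2, Fcgr3a, Ncf1, Folr2, Plbd1, Apobec1, Blnk and Cd84 are genes of phagocytes, the cells that take up debris and opsonised particles. They are 9 of the 12978 named genes on the arrays, and they were selected because they stood high in rat spinal cord 7 days after injury, against sham surgery, on these same arrays. Their day 7 values are therefore a description and carry no test. Each gene had 1 probe, and all 9 probes were detected on at least 2 arrays and entered the fit. The selection does not hold the 9 largest differences: among 13793 tested probes Cd68, Fcrl2 and Ncf1 ranked 1, 2 and 3 for the day 7 difference from sham, Folr2 ranked 16, Fcgr3a 21, Apobec1 79, Blnk 199, Plbd1 258 and Cd84 304.

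The rats were Sprague-Dawley females, 10 weeks old, and RNA was taken from thoracic spinal cord. They were wild type (WT) or carried the G93A mutation of SOD1, which encodes an antioxidant enzyme and is mutated in a familial form of motor neuron disease. WT injured rats were studied 30 min, 4 h, 24 h and 7 d after a mild compression injury, and G93A injured rats at the same 4 times. Sham-operated WT rats and sham-operated G93A rats were studied at 30 min and 4 h only, so that the later injury times have no sham pool of their own time. The RNA of the rats of a group was combined, which gave 12 pools on 12 Illumina bead arrays and 1 pool per genotype and condition. The number of rats in a pool and the construct behind the mutation are not given in the sources used here. No pool has a replicate of its own, so p-values measure only the spread between pools, which may be technical. In the comparisons of conditions that spread is the change of the genotype difference from condition to condition. A real genotype difference in the response to injury would be counted there as error. All 11 neuron markers and all 10 oligodendrocyte markers on the arrays were detected in every pool, as the label of the tissue asks. Between 49.6% and 53.8% of probes were detected in 11 pools and 41.3% in the WT pool taken 30 min after injury.

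Phagocytes of the injured cord are resident microglia, macrophages of the meninges and vessel walls, and monocytes and neutrophils that enter from the blood. Particles coated with antibody are bound by Fc receptors, whose signal passes through kinases and adaptor proteins to the actin skeleton and the NADPH oxidase, and the cargo ends in the lysosome. In bulk RNA, more cells of a type and more RNA per cell cannot be told apart.

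The promoters of these genes are shown because the ETS factor PU.1, encoded by Spi1, is required for the development of macrophages and microglia and binds purine-rich sites with a GGAA core. RefSeq gave promoters for 8 of the 9 genes, Fcrl2 being the one without an entry, and the 250 bases upstream of each start were searched on both strands. The core GGAAGT was present in 6 of 8 (Cd68, Fcgr3a, Folr2, Plbd1, Apobec1 and Blnk), and 19.2% of 33469 rat promoters of that length hold it. The longer form GAGGAAG, which overlaps the core in Fcgr3a, was present in Fcgr3a and Apobec1, against 10.2% of promoters. The sequences listed are 4 promoters with the core and 1 without it, that of Cd84, each read toward its gene in build GRCr8, with capitals on the core, on its longer form or on the reverse complement of either. The stretches lie at chr13:85782386-85782635 on the plus strand (Fcgr3a), chr10:54882442-54882691 on the minus strand (Cd68), chr1:165630383-165630632 on the minus strand (Folr2), chr4:157487602-157487851 on the minus strand (Apobec1) and chr13:86859740-86859989 on the plus strand (Cd84).
Fcgr3a: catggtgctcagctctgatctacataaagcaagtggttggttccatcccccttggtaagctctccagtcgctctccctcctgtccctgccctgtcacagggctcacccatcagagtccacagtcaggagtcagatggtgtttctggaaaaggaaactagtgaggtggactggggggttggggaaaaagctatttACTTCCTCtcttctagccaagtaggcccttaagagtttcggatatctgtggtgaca
Cd68: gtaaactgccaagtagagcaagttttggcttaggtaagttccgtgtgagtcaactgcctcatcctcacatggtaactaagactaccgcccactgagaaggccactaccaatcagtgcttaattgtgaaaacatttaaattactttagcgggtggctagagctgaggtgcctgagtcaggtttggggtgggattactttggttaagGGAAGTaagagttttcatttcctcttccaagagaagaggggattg
Folr2: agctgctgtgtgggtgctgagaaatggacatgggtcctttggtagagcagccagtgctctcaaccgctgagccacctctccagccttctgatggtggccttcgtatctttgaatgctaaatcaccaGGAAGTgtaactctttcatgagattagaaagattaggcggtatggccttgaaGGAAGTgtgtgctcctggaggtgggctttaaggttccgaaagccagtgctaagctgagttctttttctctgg
Apobec1: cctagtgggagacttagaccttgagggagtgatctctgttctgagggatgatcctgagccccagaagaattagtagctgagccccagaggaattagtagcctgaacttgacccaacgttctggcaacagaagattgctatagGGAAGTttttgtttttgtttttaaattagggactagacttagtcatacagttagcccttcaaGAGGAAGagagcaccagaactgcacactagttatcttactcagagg
Cd84: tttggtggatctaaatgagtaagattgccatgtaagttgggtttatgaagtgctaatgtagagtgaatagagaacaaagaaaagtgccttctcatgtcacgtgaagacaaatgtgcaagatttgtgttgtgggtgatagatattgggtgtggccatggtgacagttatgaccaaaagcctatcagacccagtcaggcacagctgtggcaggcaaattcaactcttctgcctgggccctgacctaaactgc
Counted from the first base of the match as printed, the core lay 45 bases before the start of Cd68 and 56 bases before that of Fcgr3a, while Folr2 held it at 124 and at 72 bases. Of the other motifs searched, AP-1 (TGANTCA) matched 2 times in Cd68 and in no other member, against 6.34% of promoters, and the E-box CACGTG matched in Cd84 alone, against 5.59%. The C/EBP pattern TTNCNNAA was found in 5 of 8 against 37.2%, CATGTG in 2 against 12.1%, the NF-kB pattern GGGNNNTCC in Ncf1 alone against 14.7%, and CCAAT in 3 against 34.0%. A match describes the letters in the window and is no evidence of binding.

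The 9 genes are grouped here by their levels and by the test between 4 h and 24 h. Differences in time course between genes were not tested. The groups overlap in size, since the difference between 4 h and 24 h was 0.53 for Fcrl2 and 0.50 for Apobec1. Fcgr3a reached its day 7 level by 24 h. Cd68, Ncf1 and Folr2 rose by 24 h and stood higher still at 7 d. Apobec1 and Blnk had smaller rises by 24 h on the normalized scale, and this order depends on the scale. Without background correction the 24 h minus 4 h difference was 2.37 for Blnk and 1.93 for Apobec1, against 3.01 for Folr2. That of Ncf1 was at most 1.45 under the settings that kept all pools. By share of the day 7 gain in deposited signal, Blnk (26.3%) and Apobec1 (20.5%) stood above Cd68 (19.1%) and Ncf1 (11.7%) and below Folr2 (27.8%). Fcrl2, Plbd1 and Cd84 did not pass the test between 4 h and 24 h and were high at 7 d.

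**Figure D1:**
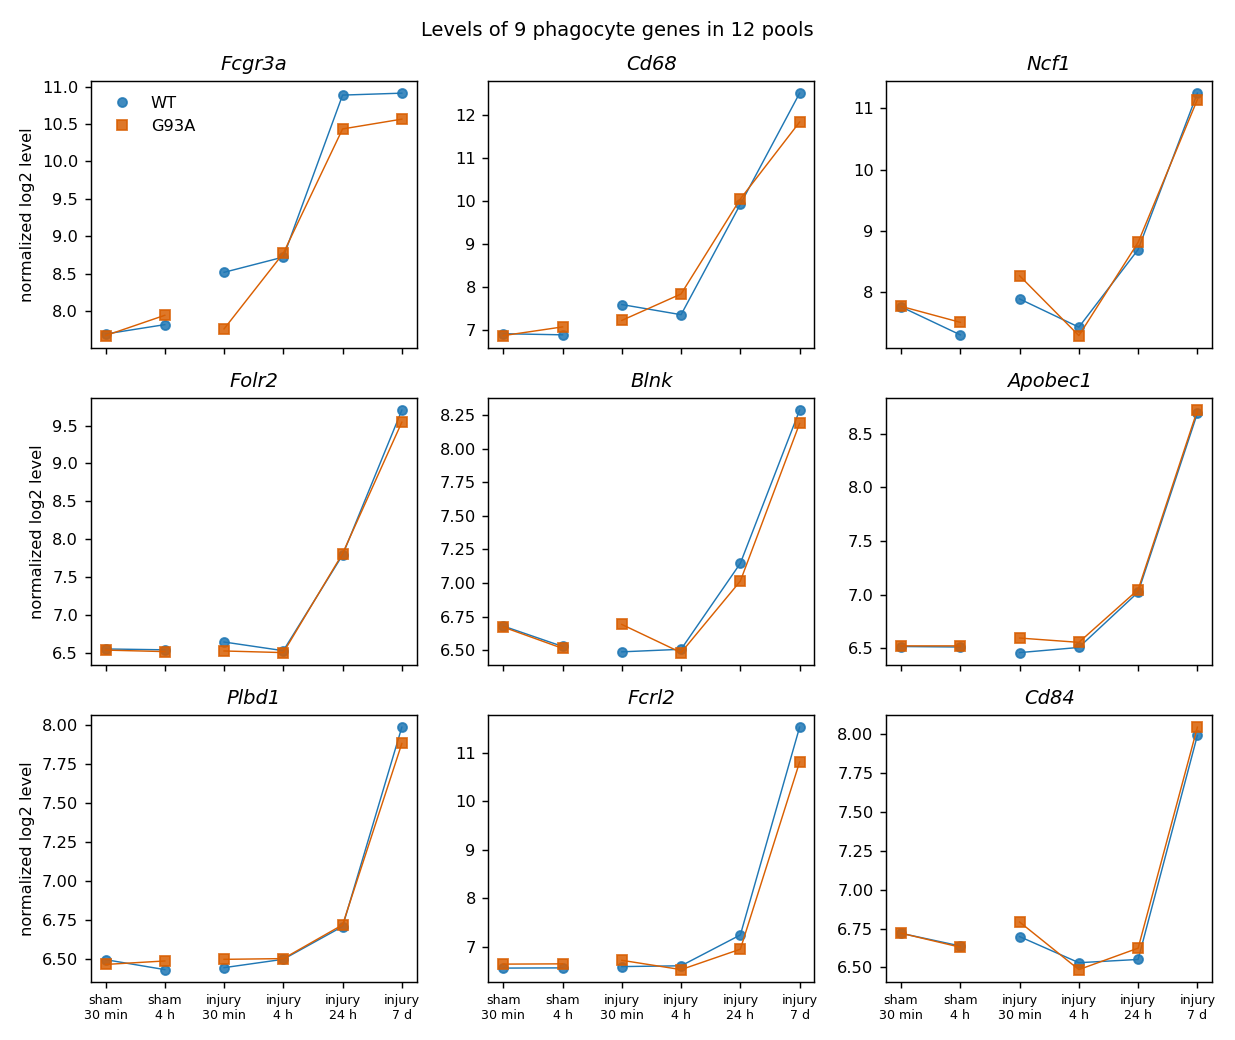
Normalized log2 level of each gene (vertical axis, own scale per panel) in the 12 pools, by surgery and time; circles are WT pools, squares G93A pools, 1 pool per point and no error bars. Fcgr3a is as high at 24 h as at 7 d, whereas Fcrl2 is at 7.24 and 6.95 at 24 h and at 11.52 and 10.80 at 7 d.

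The Fc receptor genes come first. Fcgr3a encodes an activating low-affinity receptor for immunoglobulin G. Its log2 level was 7.70 (WT) and 7.67 (G93A) 30 min after sham surgery and 7.82 and 7.95 at 4 h. After injury it was 8.52 and 7.76 at 30 min, 8.72 and 8.77 at 4 h, 10.89 and 10.43 at 24 h, and 10.91 and 10.56 at 7 d. The 4 late pools lay far above the other 8, and the 24 h and 7 d pools of a genotype were nearly equal. Fcgr3a rose by 1.91 ± 0.25 between 4 h and 24 h after injury (SE, 2 pools against 2, limma adjusted p = 0.0018), or 3.76-fold. The difference between 7 d and 24 h was 0.08 ± 0.25. At 4 h it was 0.87 ± 0.25 above the 4 h sham pools, which did not pass the threshold (limma adjusted p = 0.271).

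Fcrl2 encodes a protein of the Fc receptor-like family. RefSeq lists Fcrls and Msr2 as its synonyms, and in mouse Fcrls is a marker of microglia. Its level was 6.56 (WT) and 6.64 (G93A) at both sham times, 6.59 and 6.72 at 30 min of injury, 6.60 and 6.52 at 4 h, 7.24 and 6.95 at 24 h, and 11.52 and 10.80 at 7 d. Only the 7 d pools stood far from the rest, and the 24 h pools lay slightly above all earlier ones. Between 4 h and 24 h the difference was 0.53 ± 0.23 and missed the threshold (limma adjusted p = 0.196). The day 7 pools were 4.07 above the 24 h pools, which ranked first among the 13793 probes. In the deposited signal, which is linear, the mean went from 37.3 in sham to 114.1 at 24 h and 2335 at 7 d.

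Blnk encodes the B cell linker protein, an adaptor that joins the kinase Syk to phospholipase C gamma in B cells and is also made by macrophages. Its levels were 6.68 and 6.67 after 30 min of sham surgery, 6.53 and 6.51 after 4 h, then 6.49 and 6.69, 6.51 and 6.48, 7.15 and 7.01, and 8.29 and 8.19 at the 4 injury times, WT first. Both 24 h pools were above all earlier pools and below both 7 d pools. Blnk rose by 0.59 ± 0.11 between 4 h and 24 h (limma adjusted p = 0.0107). The call was lost without the WT 4 h pool (adjusted p = 0.130), the WT 24 h pool (0.129) or the G93A 4 h pool (0.0643).

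Among genes of cargo breakdown and oxidant production, Cd68 encodes macrosialin, a heavily glycosylated protein of late endosomes and lysosomes in macrophages. Its level was 6.91 (WT) and 6.87 (G93A) 30 min after sham surgery, 6.89 and 7.07 at 4 h, and after injury 7.59 and 7.22 at 30 min, 7.36 and 7.84 at 4 h, 9.93 and 10.05 at 24 h, and 12.52 and 11.85 at 7 d. All 4 early injury pools lay above all 4 sham pools, with 30 min and 4 h overlapping. The 24 h pools lay above all of these, and the 7 d pools higher still. Cd68 rose by 2.39 ± 0.27 between 4 h and 24 h, 5.25-fold, the fourth largest increase of the 13793 probes (rank 4, limma adjusted p = 0.000988). The early excess over sham was 0.52 ± 0.27 at 30 min (adjusted p = 0.626) and 0.62 ± 0.27 at 4 h (adjusted p = 0.835) and did not pass the test. By 7 d the mean lay 5.25 above sham, or 38.0-fold.

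Ncf1 encodes an organising subunit of the phagocyte NADPH oxidase, which assembles at the membrane on activation. Its level was 7.75 and 7.76 after 30 min of sham surgery and 7.29 and 7.50 after 4 h. After injury it was 7.88 and 8.26 at 30 min, 7.42 and 7.28 at 4 h, 8.69 and 8.81 at 24 h, and 11.25 and 11.15 at 7 d, WT first. The 4 h pools were below the 30 min pools after sham surgery as after injury, and neither step passed the test: the difference was -0.36 ± 0.21 in sham (limma adjusted p = 0.999) and -0.72 ± 0.21 after injury (adjusted p = 0.121). Ncf1 then rose by 1.40 ± 0.21 between 4 h and 24 h (adjusted p = 0.00334). A further 2.45 separated 7 d from 24 h.

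Plbd1 encodes a phospholipase B-like protein with a signal peptide, found in granules of neutrophils. It was detected in 1 of 4 sham pools and in all 4 late pools, so that its low levels have no order. Sham and early injury pools lay between 6.43 and 6.50, the 24 h pools at 6.71 (WT) and 6.72 (G93A), and the 7 d pools at 7.98 and 7.88. The step from 4 h to 24 h was 0.21 ± 0.07 and missed the threshold (limma adjusted p = 0.0833). It passed with cyclic loess, array weights, series matrix values or no background correction, and without either 30 min injury pool or either 7 d pool (adjusted p from 0.0199 to 0.0321).

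Folr2 encodes folate receptor beta, a lipid-anchored receptor of macrophages. Sham pools lay between 6.52 and 6.56. After injury its level was 6.65 (WT) and 6.53 (G93A) at 30 min, 6.54 and 6.51 at 4 h, 7.80 and 7.81 at 24 h, and 9.70 and 9.54 at 7 d. The genotypes were within 0.2 of each other at every time. Folr2 rose by 1.28 ± 0.16 between 4 h and 24 h (limma adjusted p = 0.00158), and 1.82 separated 7 d from 24 h.

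Apobec1 encodes a cytidine deaminase that edits messenger RNA, in mouse also in macrophages and microglia. Its 8 sham and early injury pools lay between 6.46 and 6.59, the 24 h pools at 7.02 and 7.05, and the 7 d pools at 8.69 (WT) and 8.72 (G93A). Apobec1 rose by 0.50 ± 0.11 between 4 h and 24 h (limma adjusted p = 0.0181). This call was the least stable of those made: it was lost without any 1 of the 4 pools at 4 h and 24 h, or of the 4 sham pools (adjusted p from 0.0520 to 0.196).

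Cd84 encodes a receptor of the SLAM family that binds itself on neighbouring leukocytes. Its level was 6.72 in both 30 min sham pools and 6.64 (WT) and 6.63 (G93A) in the 4 h sham pools. After injury it was 6.70 and 6.79, 6.53 and 6.49, 6.55 and 6.62, and 7.99 and 8.05 at the 4 times. Both 24 h pools lay below all 4 sham pools, and both 7 d pools stood clear of the other 10. The step from 4 h to 24 h was 0.08 ± 0.09 (limma adjusted p = 0.651, 95% interval -0.11 to 0.27). Without normalization between arrays it was -0.11.

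**Figure D2:**
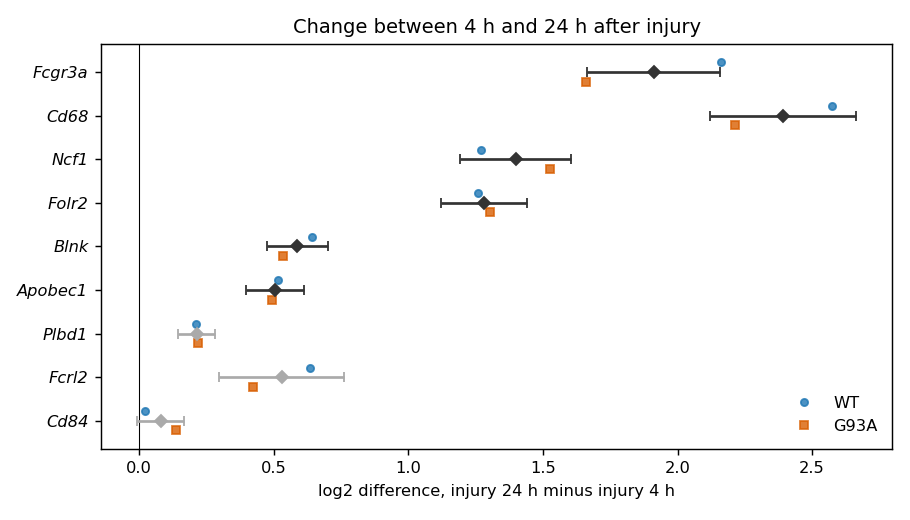
Log2 difference between 24 h and 4 h after injury for the 9 genes; diamonds are the fitted difference with its SE, black where the adjusted p passed 0.05 and grey where it did not, circles the WT pair and squares the G93A pair of pools. Cd68 has the largest difference, 2.39, and Cd84 the smallest, 0.08.

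The difference between 24 h and 4 h after injury uses no pool of the contrast that selected the genes. Its SE and p-value come from the fit to all 12 pools, those of the selection among them, so the calls are not fully independent of it. In this comparison 6 of the 9 rose and 0 fell, against 5.32% of all probes tested that rose (734 higher and 374 lower of 13793). Both genotypes showed a positive difference for all 9. The median over the 9 was 0.59, against -0.0035 over all probes. Cd68, Fcgr3a, Ncf1 and Folr2 passed under all 21 alternative settings tried, Blnk under 18 and Apobec1 under 12. Of the genes that missed the threshold, Plbd1 passed under 8 of the 21, Fcrl2 under 2 and Cd84 under 0. Leaving out 1 pool gave 4 to 7 genes called, with 4 without the WT 4 h, the WT 24 h or the G93A 4 h pool and 7 without either 30 min injury pool or either 7 d pool. Without background correction the difference was larger for the dim genes, 3.01 for Folr2, 2.37 for Blnk, 1.93 for Apobec1, 1.76 for Fcrl2 (adjusted p = 0.0159) and 1.35 for Plbd1 (adjusted p = 0.0234). The normalized scale has a floor of 6.35, which compresses low levels.

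Before 24 h no difference passed. No member passed in limma between 30 min and 4 h after injury, where 2.16% of all probes did and 3 members had an unadjusted p under 0.05. None passed against sham at 4 h (0.551% of probes called; 2 members under 0.05 unadjusted) or at 30 min (0.138% called; 0 members). Between the sham times 0.0508% of probes were called and 0 members, also without adjustment. The sham pools of these comparisons also entered the contrast that selected the genes, so the comparisons with them are not independent of the selection. The same holds for the sham tests of Fcgr3a, Cd68 and Ncf1 above.

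The share of the day 7 gain that was present at 24 h was described from the deposited signals, which have no such floor. For Fcgr3a the mean signal was 258.4 in sham, 1677 at 24 h and 1670 at 7 d, so that 100.5% of the gain was present at 24 h. The share was 27.8% for Folr2, 26.3% for Blnk, 20.5% for Apobec1, 19.1% for Cd68, 15.3% for Plbd1 and 11.7% for Ncf1. It was 3.34% for Fcrl2. Cd84 was below sham at 24 h, with a mean signal of 23.4 against 54.1 in sham and 276.5 at 7 d, a share of -13.8%. The 2 genotypes gave close shares, for Ncf1 11.5% in WT and 11.9% in G93A, with the widest gaps for Fcgr3a (107.0% and 91.8%) and Cd68 (14.9% and 26.2%). These shares rest on the contrast that selected the genes and on its sham pools, and are untested.

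**Figure D3:**
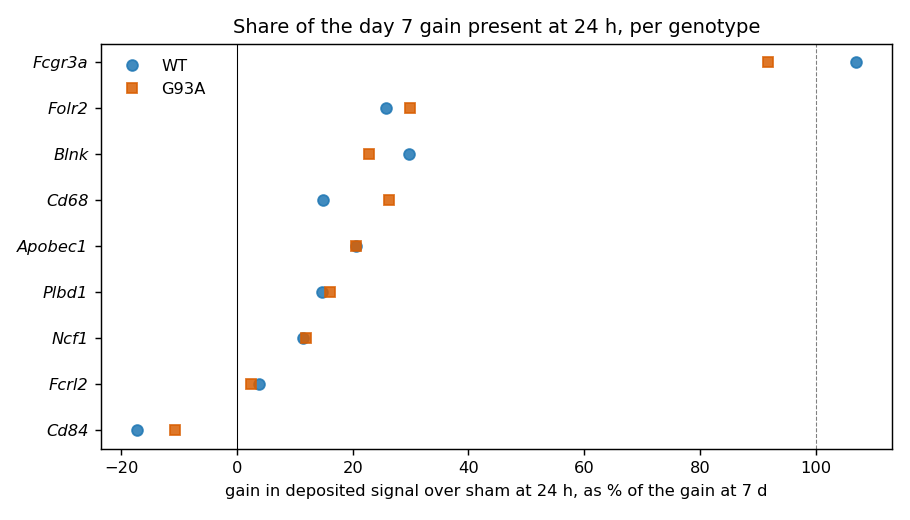
Gain in deposited signal over the sham mean at 24 h, as a percentage of the gain at 7 d (horizontal axis), for each gene in WT (circles) and G93A pools (squares); the dashed line marks 100%, 1 pool per time and genotype. Fcgr3a lies near 100% in both genotypes, Fcrl2 at 3.88% and 2.45%, and Cd84 below 0.

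On the normalized scale the 9 differences from sham at 7 d ran from 1.34 for Cd84 to 5.25 for Cd68, with a median of 2.95 against -0.01 over all probes, where 21% of probes were called. At 24 h the same differences ran from -0.09 for Cd84 to 3.06 for Cd68, with a median of 0.52, where 20.8% of probes were called. Both comparisons use the same 4 sham pools, and the first one selected the genes, so nothing is read from the counts. Between 24 h and 7 d the differences ran from 0.08 for Fcgr3a to 4.07 for Fcrl2, with a median of 1.67. Pearson's r between the profiles of 2 members over the 12 pools lay between 0.540 (Fcgr3a and Cd84) and 0.996 (Plbd1 with Fcrl2 and with Apobec1). These are descriptions, since the 2 day 7 pools that selected the genes are among the 12.

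Genotype made no difference that passed the test. Over the 6 pairs of pools 0 of 13793 probes and 0 members were called by limma (0% of probes; 316 probes and 0 members at an unadjusted p under 0.05). At 24 h and 7 d together it was again 0% of probes (719 probes unadjusted). The 1 member with an unadjusted p under 0.05 there was Fcrl2, lower in G93A in both late pairs of pools (6.95 against 7.24 at 24 h and 10.80 against 11.52 at 7 d), a mean difference of -0.51 ± 0.19 (unadjusted p = 0.0281, adjusted p = 0.899). Its late difference exceeded the early one by -0.56 ± 0.24 (adjusted p = 0.998), with 0% of probes called and 563 under 0.05 unadjusted. Cd68 was also lower in G93A at 7 d, at 11.85 against 12.52, and higher at 24 h, and the late difference was -0.28 ± 0.27 (adjusted p = 0.999). For Ncf1 it was 0.01, with a 95% interval from -0.47 to 0.48, which leaves room for differences of that size.

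Other genes of the same pathways were read from lists, members left out. The counts of these lists and of the marker lists below stand beside the shares over all 13793 probes. Of those, 5.32% rose between 4 h and 24 h, and at 7 d 1571 were above and 1328 below sham. Between 24 h and 7 d 408 of the 13793 rose and 216 fell. Of 25 tested genes of Fc receptors and their signalling, 8 rose between 4 h and 24 h and 0 fell, with a median of 0.25. Fcgr1a, the high-affinity receptor, rose by 1.64 ± 0.17 (limma adjusted p = 0.000681), the phosphatase Ptpn6 by 1.65 ± 0.36 (0.0206), the actin nucleation subunit Arpc1b by 1.29 ± 0.27 (0.0153) and the adaptor Tyrobp by 1.20 ± 0.30 (0.0376, called in 11 of 21 alternatives). At 7 d 22 of the 25 were above sham, with a median of 1.24. Fcgr1a was at 1.61 ± 0.14 above sham at 7 d and at 1.72 ± 0.14 at 24 h, an even course like that of Fcgr3a. Fcgr2a, named here after its values were seen, was at 0.00 ± 0.17 between 4 h and 24 h (adjusted p = 0.999) and rose by 1.40 ± 0.17 between 24 h and 7 d (adjusted p = 0.00115). The 24 h count ranged from 1 to 13 over the alternatives (13 without the WT 30 min injury pool), and the 7 d count from 19 to 22.

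Of 7 tested genes of the phagocyte NADPH oxidase, 2 rose between 4 h and 24 h, the membrane subunit Cyba by 1.44 ± 0.22 (limma adjusted p = 0.00382) and the cytosolic subunit Ncf4 by 0.42 ± 0.06 (0.00211). At 7 d 6 of the 7 were above sham, Cyba by 2.49 ± 0.19 (adjusted p = 1.46e-05). Cybb, the catalytic subunit, named after its values were seen, was detected on 6 arrays and was at 0.01 ± 0.03 between 4 h and 24 h (adjusted p = 0.893). Among 18 endolysosomal genes 1 rose, the protease Lgmn by 1.06 ± 0.18 (adjusted p = 0.00572), and 1 fell, the small GTPase Rab7b, which decreased by 0.81 (SE 0.16, adjusted p = 0.0107). A count of 1 in 18 is near the 5.32% of all probes that rose. At 7 d 12 of these 18 were above sham and 1 was below.

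SLAM receptors and adaptors gave 0 calls in 5 tested genes between 4 h and 24 h, with the smallest p for Slamf9 at 0.56 ± 0.17 (limma adjusted p = 0.0731), and 2 of 5 above sham at 7 d. Of 7 folate receptors and carriers 0 were called between 4 h and 24 h or at 7 d against sham. Shmt2, a mitochondrial enzyme of folate metabolism, was at 0.38 ± 0.12 between 4 h and 24 h (adjusted p = 0.0818), and at 24 h it was the 1 gene of the list above sham, by 0.38 ± 0.11 (adjusted p = 0.0285). Of 8 deaminases and editing cofactors 0 were called between 4 h and 24 h, and 4 were above and 1 below sham at 7 d (2 to 4 above and 0 to 1 below over the alternatives, 2 above without the WT 7 d pool). Among them Apobec3, which restricts retroviruses, was at 0.23 ± 0.07 between 4 h and 24 h (adjusted p = 0.0715) and at 0.55 ± 0.06 at 7 d (adjusted p = 0.000137). The difference between lists was not tested. Without the WT 30 min injury pool the counts that rose between 4 h and 24 h were 3 for the NADPH oxidase, 2 for SLAM, 2 for folate, 1 for the deaminases and 2 for endolysosomal genes.

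Of 17 myeloid transcription factors 4 rose and 1 fell between 4 h and 24 h, and 11 were above sham at 7 d. The 24 h count of 4 ranged from 0 to 8 over the alternatives, 8 without the WT 30 min injury pool, and the 7 d count from 6 to 12, 6 without the WT 7 d pool. Lyl1 rose by 1.21 ± 0.24 (limma adjusted p = 0.0123), Fli1, an ETS factor, by 1.18 ± 0.21 (0.00711), and Irf5 by 0.76 ± 0.18 (0.0317, called in 13 of 21 alternatives). Bhlhe40 decreased by 1.10 (SE 0.29, adjusted p = 0.0434), a call made in 8 of 21 alternatives. Spi1 was dim, detected on 9 arrays, and rose by 0.19 ± 0.05 between 4 h and 24 h (adjusted p = 0.0399, from 0.00707 to 0.908 over the alternatives). At 7 d it was 0.49 ± 0.04 above sham (adjusted p = 3.39e-05), at 7.03 in WT and 6.92 in G93A against 6.45 to 6.52 in sham.

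The non-member genes whose profile over the 12 pools was most like the mean profile of the 9 were Ms4a6bl1 (Pearson's r 0.997), Msln (0.991), Itgb2 (0.989), Tmem37 (0.989) and Myo1f (0.989). Spi1 stood at 0.987. Itgb2 is the shared beta chain of leukocyte integrins and Myo1f a myosin of leukocytes. Between 4 h and 24 h their differences ran from 0.22 for Msln to 1.32 for Ms4a6bl1, which the choice by profile fixes in direction. Of the 9 genes, Folr2 was closest to the mean profile (0.997), and Cd84 (0.899) and Fcgr3a (0.851) were the farthest. The likeness uses all 12 pools, the day 7 pools of the selection among them, and neither it nor these differences has a test.

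**Figure D4:**
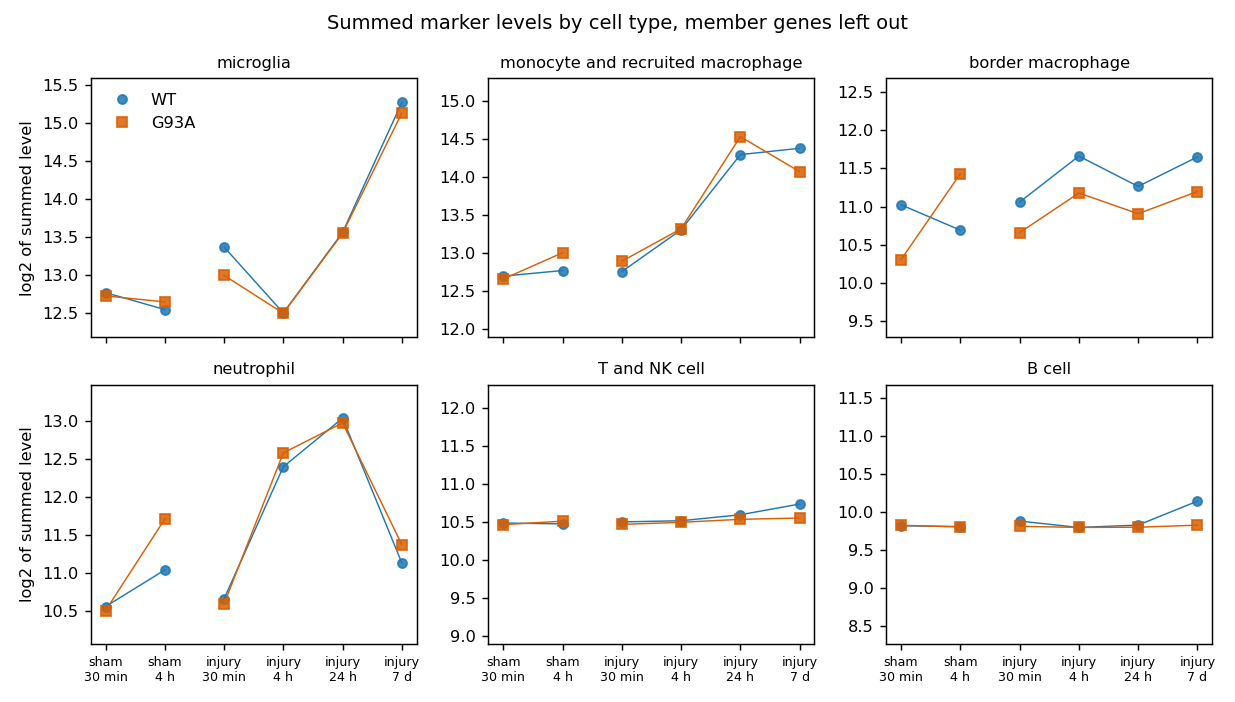
Log2 of the summed normalized level of marker genes of 6 cell types in each pool (vertical axis, equal span in every panel), member genes left out, by surgery and time; circles are WT and squares G93A pools. Microglia markers are highest at 7 d, at 15.27 and 15.13, and the neutrophil sum, carried by Lcn2 and S100a8, at 24 h, at 13.04 and 12.97.

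Markers of several cell types moved over the same interval, and their part in the results was not tested. For microglia 6 of 14 markers rose between 4 h and 24 h and 13 of 14 were above sham at 7 d. The 24 h count ranged from 1 to 8 over the alternatives, and that of monocyte markers from 4 to 10. Of the microglia markers that rose, Trem2 and Slc2a5 were within their sham range at 24 h, after lower 4 h levels. Trem2 was at 8.18 and 8.48 at 4 h, and at 9.64 and 9.61 at 24 h (sham 8.95 to 9.67). Slc2a5 was at 6.90 and 7.03, then at 8.35 and 8.51 (sham 7.96 to 8.66). Aif1, Tyrobp, C1qb and C1qc lay above all sham pools at 24 h. The summed level of microglia markers was 12.5 to 12.8 in sham, and 13.37 (WT) and 12.997 (G93A) 30 min after injury. It was 12.5 in both 4 h injury pools, 13.6 at 24 h and 15.1 to 15.3 at 7 d. P2ry12, a defining marker of resting microglia, did not follow at 24 h. It was then at 6.69 (WT) and 6.62 (G93A), below the 4 sham pools at 6.82 to 7.26. At 7 d P2ry12 was at 8.19 and 8.20, or 1.15 ± 0.16 above sham (limma adjusted p = 0.000623). Tmem119, another defining marker, was detected on 6 arrays and stayed between 6.46 and 6.56.

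For monocytes and recruited macrophages 9 of 13 markers rose between 4 h and 24 h. At 7 d 8 of 13 were above sham and 0 below (5 to 9 above over the alternatives), with a median of 0.83. Between 24 h and 7 d 1 rose and 4 fell, among them Arg1, which decreased by 1.68 (SE 0.23, limma adjusted p = 0.002). Their summed level was 12.66 to 13.01 in sham, 13.3 at 4 h of injury, 14.3 and 14.5 at 24 h, and 14.4 and 14.1 at 7 d, WT first. Ccr2, which defines blood monocytes, was between 6.50 and 6.61 in all 12 pools. For macrophages of borders 2 of 7 rose between 4 h and 24 h (0 to 3 over the alternatives), Lyve1 by 0.93 ± 0.13 (adjusted p = 0.00296). At 7 d 2 of 7 were above sham (0 to 3 over the alternatives). The summed level, 10.3 to 11.7, overlapped between sham and injury and was carried by Pf4, whereas Mrc1, Cd163, F13a1 and Siglec1 lay near the floor.

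Neutrophil markers gave 0 of 12 calls between 4 h and 24 h, and at 7 d 3 of 12 were above sham (1 to 3 over the alternatives). Their summed level was 10.5 to 11.7 in sham, 12.4 and 12.6 at 4 h, 13.04 and 12.97 at 24 h and 11.1 and 11.4 at 7 d. This sum is carried by Lcn2, at 12.52 (WT) and 12.51 (G93A) at 24 h, and S100a8, at 10.28 and 9.90, which both fell between 24 h and 7 d. S100a9, Ngp and Ltf were detected on 0 arrays. B cell markers were near the floor: 4 of 10 were tested and 0 called between 4 h and 24 h, and Ms4a1, Pax5, Cd22 and Fcer2 were detected on 0 arrays. One of them, Fcrla, was at 8.38 in the WT 7 d pool and at 6.90 in the G93A 7 d pool. For T and NK cells 0 of 11 rose between 4 h and 24 h (0 to 2 over the alternatives) and 4 were above sham at 7 d (2 to 5, with 2 without the WT 7 d pool, either 30 min sham pool or the WT 4 h sham pool), with a summed level of 10.5 in sham and of 10.7 (WT) and 10.5 (G93A) at 7 d. Among oligodendrocyte, astrocyte and neuron markers the calls between 4 h and 24 h, and at 7 d against sham, were decreases. Between 4 h and 24 h 8 of 10 oligodendrocyte, 4 of 7 astrocyte and 2 of 11 neuron markers fell, with counts of 1 to 10, 1 to 5 and 0 to 4 over the alternatives. At 7 d 9 of 11 neuron markers (median -1.33), 5 of 10 oligodendrocyte and 3 of 7 astrocyte markers were below sham, with counts of 3 to 9, 2 to 8 and 0 to 3. Between 24 h and 7 d 2 of the 7 astrocyte markers rose and 0 fell, with a median of 0.73.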

How the data were processed

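Each of the 12 samples is 1 pool on 1 array, grouped by the labels. The deposited intensity values are bead signals from BeadStudio 3.2.6, per the submitters' processing notes; 21.0% to 28.6% of an array's values lie below 0, so the authors had subtracted background. The mean signal of an array lay between 324.9 and 326.9 on all 12 arrays, so the deposited signals already shared a mean. Medians were less even. With background correction but no normalization between arrays, the median over all probes was -0.20 at 24 h over sham and 0.26 at 7 d over 24 h. The setting without normalization between arrays and the shares of the day 7 gain start from the deposited signals, and what this does to the shares was not tested. The deposited files also give, per their headers, a detection p-value for every signal. In the deposited series matrix each array's intensity values follow its signals along a straight line, with column medians from 6.27 to 11.7; it is linear and not centred, how it was scaled is not known here, and it served as an alternative.

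Deposited identifiers stand beside the values of other probes. With identifiers in sorted order, 1272 probes of smell receptors went from 51.8% to 6.08% detected and 111 ribosomal and proteasome probes from 52.8% to 90.5%. Every gene name rests on this order, which is inferred. Under the deposited order the row named Cd68 would lie between -8.38 and 3.56 in signal. Names came from the platform annotation, updated through RefSeq: 13192 of 22226 probes had 1 symbol, 0 several and 9034 none.

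Background and quantile normalization used neqc (limma 3.58.1, R 4.3.3) with an offset of 16. Probes with a detection p-value under 0.05 on at least 2 arrays were kept, 13793 in all. Condition (6 levels) and genotype were terms of 1 limma model across all probes. It left 5 residual degrees of freedom (4 for the late genotype difference), and eBayes used a trend in intensity. The Benjamini-Hochberg adjustment ran over all probes of a comparison at 0.05. Where leaving out a pool left 1 in a condition, its spread was taken from the other conditions. The number of arrays limits the precision.

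The genes and the lists were chosen with earlier results of these data known. Named genes are the 9 members, up to 4 non-members of each pathway list with the largest 24 h minus 4 h difference among those called (otherwise the smallest p), defining markers, the 5 genes most like the mean profile, and Spi1. Alternatives were background correction, normalization, series matrix values, the variance trend, array weights, the filter, the genotype term and each pool left out. Marker lists not described in the text were not used for a statement.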

Additional observations from a re-analysis of the deposited data

How the results depend on the processing

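The count of 6 members that rose between 4 h and 24 h was 4 to 7 without 1 pool and 5 to 8 under the other 9 settings. Over all probes the calls of that comparison went from 1108 to 143 (without the WT 4 h pool) to 3003 (without the G93A 30 min injury pool), and to 1672 with cyclic loess, 2030 without normalization between arrays and 2730 with array weights. Without normalization the median of all probes moved by -0.17 and the split from 734 higher and 374 lower to 627 and 1403. Members called between 30 min and 4 h after injury went from 0 to 1 without background correction (Cd84, -1.38) and with series matrix values (Cd84, -0.66), and were 0 to 1 without 1 pool (Ncf1, -0.91, without the WT 30 min injury pool). Against sham at 4 h the count became 1 with array weights (Fcgr3a, adjusted p = 0.0288) and 0 to 1 without 1 pool, Fcgr3a passing without either 30 min injury pool. At 30 min it was 0 to 1 without 1 pool (Fcgr3a, without the G93A 30 min injury pool). The members' median at 7 d over sham, 2.95, became 3.71 without background correction and 2.64 with series matrix values. At 24 h over sham, 0.52 became 1.69, 0.37 without normalization, and 0.96 with series matrix values. Between 24 h and 7 d, 1.67 became 2.02 without background correction, 1.52 with loess, 1.71 without normalization and 1.52 with series matrix values, and 1.64 to 1.69 without 1 pool. The Cd84 step from 4 h to 24 h reversed to -0.11 without normalization, and the day 7 difference of Shmt2, -0.0505 to 0.167 without 1 pool, to -0.0505 without the G93A 7 d pool. The genotype comparisons gave 0 members under all alternatives. Apart from the pools left out, the causes of these moves, the floor of the scale among them, were not tested. Pools of 1 genotype are paired through the genotype term, and without that term the count was again 6; the labels carry no replicate numbers for another pairing.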
